A study of Mus musculus with 11 samples.

Results

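The Tribbles pseudokinase genes Trib1, Trib2 and Trib3, the ubiquitin ligase gene Cop1 (also called Rfwd2) and the C/EBP transcription factor genes Cebpa, Cebpb, Cebpd and Cebpg were examined in mouse thymocytes. These 8 genes, of 54418 in the count table, were chosen by name as a gene family with its partners, and found in the table by their GENCODE gene names. They were listed with earlier results of these data known, Trib1 and Cebpb because of their difference from wild-type (wt) mice, so every difference of these genes from wt mice is given as a description, and nothing is read from how many of them lay past a threshold against wt mice.

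RNA was sequenced from thymocytes of 4 wt mice, 4 mice lacking Zmat3 in all tissues (Zmat3-/-) and 3 mice lacking Puma, p21 and Zmat3 in all tissues (Puma-/-p21-/-Zmat3-/-, TKO). Zmat3 encodes a zinc finger RNA-binding protein, and Puma (gene symbol Bbc3) and p21 (gene symbol Cdkn1a) encode inducers of apoptosis and of cell cycle arrest; all 3 are targets of the tumour suppressor TRP53. The mice were young adults, 8 to 12 weeks old, on a C57BL/6-WEHI background, and no treatment was given before the RNA was taken. Cells were suspensions of whole thymus, not sorted, so a lower level can mean fewer cells of a type or less RNA per cell, and these cannot be told apart here.

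Tribbles proteins have a kinase fold that phosphorylates poorly or not at all and act as scaffolds. They hold a substrate in their pseudokinase domain and the E3 ubiquitin ligase COP1 at their carboxyl-terminal tail, so that the substrate, best known for C/EBPα, is ubiquitinated and degraded. In blood cells TRIB1 and TRIB2 can cause acute myeloid leukaemia when present in excess, through loss of C/EBPα, while TRIB3 is best known as a gene switched on by ATF4 and CHOP during cellular stress.

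Library totals ranged from 17669715 to 80207003 counts, and levels are given as CPM, the counts scaled to library size with TMM factors. Thymocyte markers were high in every library, with a summed level of 10 genes between 11907 and 15108 CPM. Without Rag1, the most abundant of them, the sum was 8804 to 10996 CPM in wt, 8067 to 8983 across Zmat3-/- and 8657 to 9490 across TKO mice. Counts of the targeted genes, summed over the whole gene, were lower than in wt mice where the gene was deleted but not 0. Zmat3 was 9.80, 12.05, 27.2 and 27.4 CPM in wt mice 1 to 4, 5.33 to 6.91 across Zmat3-/- mice and 7.52 to 8.13 across TKO mice. Bbc3 was 12.0 to 15.9 CPM in TKO and 17.0 to 19.8 in wt mice, and Cdkn1a was 2.27 to 3.56 in TKO and 3.58 to 10.2 in wt mice. The wt libraries fell into pairs: across genes, log2 levels correlated at 0.983 between wt mice 1 and 2 and at 0.984 between mice 3 and 4, but at 0.889 to 0.922 between the pairs, against 0.986 to 0.992 among Zmat3-/- mice and 0.972 to 0.985 among TKO mice. Xist, expressed from the inactive X chromosome, was at 501 to 1499 CPM in wt 1, wt 2, Zmat3-/- 1, Zmat3-/- 2 and TKO 1 while the other 6 mice had 0.735 to 2.60 CPM, so the wt pairs also differed in Xist.

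Levels were first set in order within each genotype, as CPM per kb of exon. In wt mice Trib2 was highest, at 28.2 ± 3.39 (SD, n = 4), followed by Cebpg at 13.3 ± 0.263. Cebpb at 4.20 ± 2.61, Cop1 at 3.89 ± 0.0892 and Cebpa at 3.41 ± 1.92 did not differ beyond their spread. Trib1 stood at 2.08 ± 0.120, below Cop1 but inside the spreads of Cebpb and Cebpa. Cebpd at 0.748 ± 0.309 and Trib3 at 0.516 ± 0.375 were lowest, with overlapping spreads. In Zmat3-/- mice Trib1 stood at 8.56 ± 0.168, above Cebpa at 4.71 ± 1.04 and Cop1 at 4.27 ± 0.0604, and Cebpb at 12.5 ± 3.59 was level with Cebpg at 11.2 ± 0.210. The order in TKO mice had Trib2 at 29.2 ± 1.87, Cebpg at 12.1 ± 1.64, Cebpb at 11.7 ± 0.676 and Trib1 at 9.26 ± 1.10 on top, of which Cebpg and Cebpb did not differ beyond their spread. Cop1 at 4.38 ± 0.0504 and Cebpa at 4.22 ± 2.39 followed without a difference beyond their spread, as did Trib3 at 0.437 ± 0.0788 and Cebpd at 0.363 ± 0.102. The places of Cop1 and Trib1 depend on the length used. The exons of Cop1 cover 17516 bases over 13 transcripts, and by the longest transcript of 6999 bases its wt level was 9.73 CPM per kb. By the longest transcript, of 4330 bases, Trib1 stood at 13.4 ± 1.59 in TKO mice and 12.4 ± 0.243 in Zmat3-/- mice, where Cebpb at 11.7 ± 0.676 and 12.5 ± 3.59 did not differ from it beyond their spread.

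**Figure D1:**
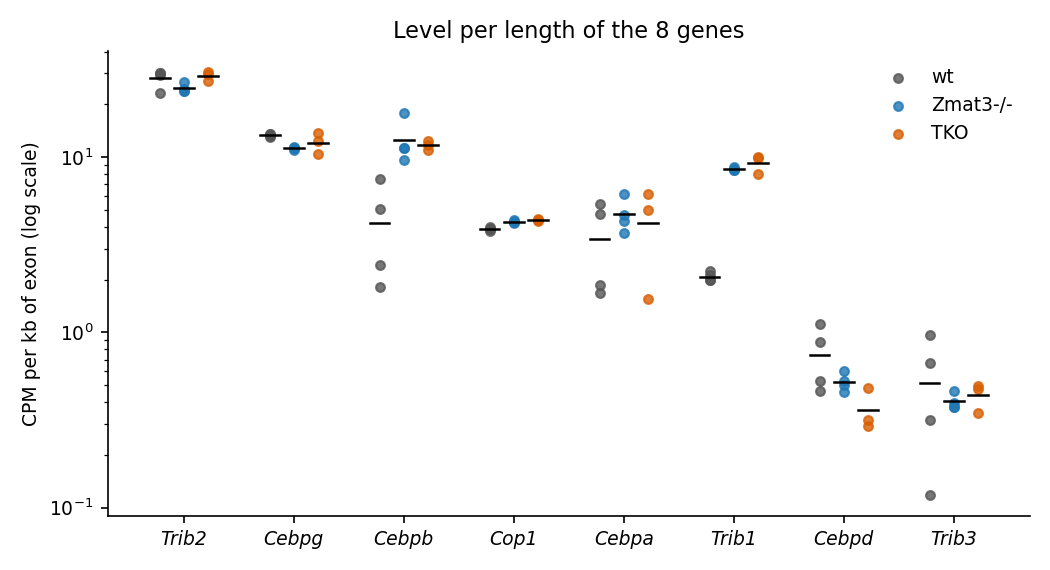
Level of each gene in CPM per kb of exon, on a log axis, with 1 point per mouse and a bar at the mean of each genotype (grey wt, blue Zmat3-/-, orange TKO), ordered by the wt mean. Trib1 moves from 2.08 in wt mice to 8.56 in Zmat3-/- and 9.26 in TKO mice, while Trib2 stays highest in all 3 genotypes.

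Trib1 (ENSMUSG00000032501.9; GRCm38 chr15:59648350-59657099, + strand) was higher in every mutant mouse than in every wt mouse. TRIB1 is known for restraining C/EBPα through COP1 in myeloid cells. Its level was 13.3, 12.4, 12.4 and 13.9 CPM in wt mice 1 to 4, 52.6, 53.4, 53.0 and 55.0 CPM in Zmat3-/- mice 1 to 4, and 49.9, 61.5 and 62.2 CPM in TKO mice 1 to 3. The wt mice were tightly grouped, the Zmat3-/- mice likewise, and TKO mouse 1 was the lowest of the 7 mutant mice. Trib1 was 4.12-fold higher in Zmat3-/- than in wt mice (log2 fold change 2.04, SE 0.0863) and 4.40-fold higher in TKO than in wt mice (2.14, SE 0.131). The split of the wt mice left Trib1 near these values: without wt mice 1 and 2 the log2 difference was 2.03 for Zmat3-/- and 2.12 for TKO, and without wt mice 3 and 4 it was 2.05 and 2.15. Both comparisons share the wt mice.

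A gene was called changed at an adjusted p under 0.05 and an absolute log2 fold change above 1.5 (edgeR quasi-likelihood test). Of the 7 genes measured highly enough, 1, Trib1, lay past these thresholds in TKO against wt, beside 0.241% of 13260 genes, and 1, again Trib1, in Zmat3-/- against wt, beside 0.319% of 13494 genes. Nothing is read from these counts, since the differences from wt mice put genes on the list. Among genes called higher, which made up 0.196% of genes in TKO and 0.2% in Zmat3-/- mice, Trib1 ranked 20 of 26 and 15 of 27 by fold change.

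Trib2 (ENSMUSG00000020601.8; chr12:15791727-15816922, - strand), the Tribbles gene best known in T-cell leukaemia, was the most abundant of the family per length. It was at 100.3, 127, 131 and 131 CPM in wt mice 1 to 4, 103, 107, 103 and 116 CPM in Zmat3-/- mice, and 129, 133 and 117 CPM in TKO mice. Wt mouse 1 lay below the other wt mice, and the wt range contained all of the Zmat3-/- mice. The log2 difference from wt mice was -0.19 (SE 0.112) in Zmat3-/- and 0.03 (SE 0.140) in TKO mice, on a gene with 2288 to 9587 counts per library. Without wt mice 1 and 2 it was -0.28 and -0.06, and without wt mice 3 and 4 it was -0.10 and 0.14.

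Trib3 (ENSMUSG00000032715.9; chr2:152337422-152344032, - strand) was near the limit of detection, with 6 to 82 counts per library, and did not pass the minimum for testing in any comparison. Its level was 2.05, 1.42, 0.253 and 0.669 CPM in wt mice 1 to 4, 0.989, 0.844, 0.801 and 0.796 CPM in Zmat3-/- mice, and 0.737, 1.05 and 1.00 CPM in TKO mice. The highest and the lowest of all 11 values both came from wt mice.

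**Figure D2:**
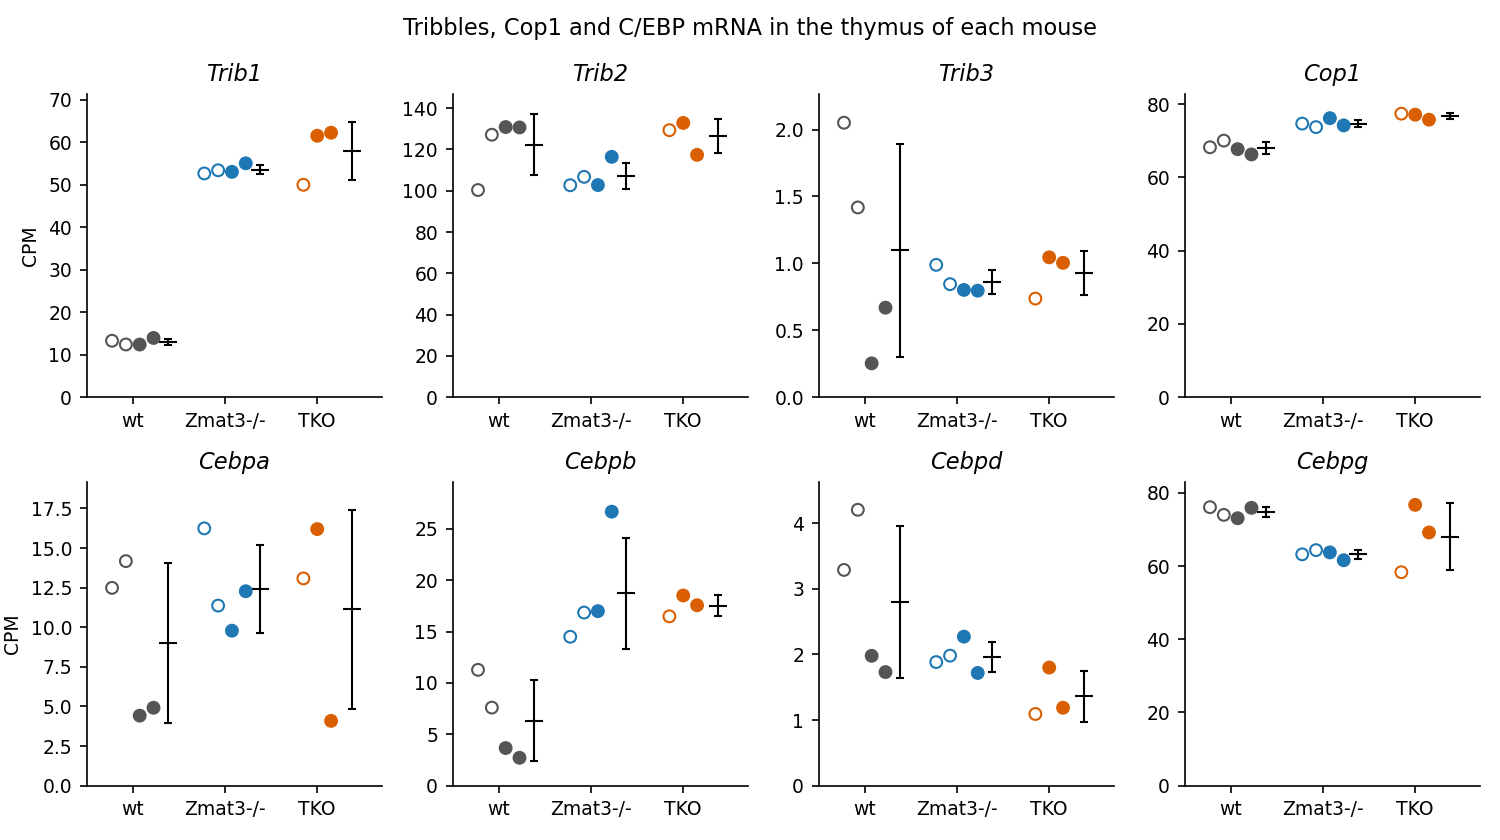
Level of each of the 8 genes in CPM in every mouse, on linear axes that start at 0, with the mean and SD of each genotype beside the points (wt, n = 4; Zmat3-/-, n = 4; TKO, n = 3). Open symbols mark mice with high Xist; the 4 wt values of Trib1 lie between 12.4 and 13.9 CPM and the 7 mutant values between 49.9 and 62.2.

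Cop1 (ENSMUSG00000040782.12; chr1:159232320-159347640, + strand) encodes the ligase that the Tribbles proteins recruit. It was at 68.3, 70.1, 67.7 and 66.3 CPM in wt mice, 74.7, 73.8, 76.2 and 74.2 CPM in Zmat3-/- mice, and 77.4, 77.2 and 75.8 CPM in TKO mice. All 7 mutant mice lay above all 4 wt mice, by a small margin. The level was 1.10-fold that of wt mice in Zmat3-/- (log2 difference 0.14, SE 0.0715) and 1.11-fold in TKO mice (0.16, SE 0.101). Of the genes tested, 6.85% in TKO and 7.1% in Zmat3-/- mice lay wholly above wt mice.

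Cebpb (ENSMUSG00000056501.3; chr2:167688915-167690418, + strand), a single-exon gene for a factor of macrophages, granulocytes and inflammatory responses, was higher in every mutant than in every wt mouse, but the wt mice were far apart. Of all tested genes, 6.85% in TKO and 7.1% in Zmat3-/- mice also lay wholly above wt mice. It was at 11.3, 7.60, 3.66 and 2.71 CPM in wt mice 1 to 4, 14.5, 16.9, 17.0 and 26.7 CPM in Zmat3-/- mice and 16.5, 18.5 and 17.6 CPM in TKO mice. Wt mice 1 and 2 were the higher pair, and Zmat3-/- mouse 4 was the highest of all. Cebpb was 2.95-fold higher in Zmat3-/- (log2 difference 1.56, SE 0.434) and 2.72-fold higher in TKO than in wt mice (1.45, SE 0.455). The size depended on which wt mice were used. Without wt mice 1 and 2 the log2 difference was 2.56 in Zmat3-/- and 2.44 in TKO mice, and without wt mice 3 and 4 it was 0.98 and 0.88. Among mice with high Xist it was 0.74 and 0.80, and among mice with low Xist 2.77 and 2.48. The gene shares 312 of its 1504 exon bases with Tmem189 on the opposite strand, and the kit did not keep strand, so reads there cannot be assigned by strand; Tmem189 was at medians of 61.0, 53.7 and 53.9 CPM in wt, Zmat3-/- and TKO mice.

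Because Cebpb and Cebpg were the C/EBP genes whose Zmat3-/- mice did not overlap wt mice, in opposite directions, their upstream sequences are shown. Of all tested genes 7.1% lay wholly above and 6.87% wholly below wt mice in that comparison. Any link between these sequences and the levels was not tested. They are the 250 bases before the RefSeq transcription start (GRCm38.p6), read 5′ to 3′ on the gene's strand, at chr2:167688665-167688914 for Cebpb (+ strand) and chr7:35056567-35056816 for Cebpg (- strand). Capitals mark the cyclic AMP response element (CRE) half-site, TGACG on either strand, written CGTCA where it lies on the other strand.
Cebpb: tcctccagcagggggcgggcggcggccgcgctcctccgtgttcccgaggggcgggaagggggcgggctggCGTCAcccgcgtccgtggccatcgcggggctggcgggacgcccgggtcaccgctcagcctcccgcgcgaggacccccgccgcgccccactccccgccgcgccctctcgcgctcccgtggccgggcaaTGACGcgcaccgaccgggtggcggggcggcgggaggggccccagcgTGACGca
Cebpg: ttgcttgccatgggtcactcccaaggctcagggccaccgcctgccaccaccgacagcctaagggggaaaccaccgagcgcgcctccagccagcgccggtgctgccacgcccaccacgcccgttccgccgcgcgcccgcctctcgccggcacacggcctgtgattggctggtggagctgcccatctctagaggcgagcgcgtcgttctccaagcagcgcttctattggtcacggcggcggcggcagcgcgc

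In windows from 250 bases before to 50 bases after the start, at least 1 CRE half-site was present in 20.8% of 32851 windows. Cebpb had 3, at positions -180, -53 and -7 from the start. Trib3 had 2, at -237 and -10, Cop1 had 1, at -154, and Trib2, Cebpa and Cebpg had none; a window was found for 6 of the 8 genes. The full CRE, TGACGTCA, was in none of the 6 windows and in 1.79% of all windows. None of the 6 held the AP-1 motif TGANTCA (7.81% of all windows), the C/EBP motif TTGCNNAA (10.8%) or a CArG box (1.63%). Trib3 alone of the 6 held the C/EBP-ATF response element TGATGNAA (3.97% of all windows), which on the opposite strand begins at base 15 of the transcript. A half-site is part of the full CRE, and a match is only a run of letters.

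Cebpa (ENSMUSG00000034957.10; chr7:35119293-35121928, + strand), the C/EBP gene whose protein is the classical target of TRIB1 and TRIB2 and which is needed for granulocytes, varied more within genotypes than between them. It was at 12.5, 14.2, 4.42 and 4.92 CPM in wt mice 1 to 4, 16.2, 11.4, 9.78 and 12.3 CPM in Zmat3-/- mice and 13.1, 16.2 and 4.09 CPM in TKO mice. Wt mice 3 and 4 and TKO mouse 3 were the low ones. The log2 difference from wt mice was 0.46 (SE 0.393) in Zmat3-/- and 0.28 (SE 0.578) in TKO mice, and it moved with the wt pair: without wt mice 1 and 2 it was 1.42 and 1.22, and without wt mice 3 and 4 it was -0.11 and -0.30.

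Cebpd (ENSMUSG00000071637.5; chr16:15887286-15891031, + strand), an acute-phase C/EBP gene, was at 3.29, 4.20, 1.98 and 1.73 CPM in wt mice, 1.88, 1.98, 2.27 and 1.72 CPM in Zmat3-/- mice and 1.09, 1.80 and 1.19 CPM in TKO mice, from 31 to 172 counts per library. Wt mice 1 and 2 stood above all the others. The log2 difference from wt mice was -0.52 (SE 0.308) in Zmat3-/- and -1.08 (SE 0.411) in TKO mice. Without wt mice 1 and 2 it was 0.09 and -0.49, so in Zmat3-/- mice its sign changed without that pair. Without wt mice 3 and 4 it was -0.94 and -1.51. The gene shares 562 of its 3746 exon bases with Spidr on the opposite strand, which was at medians of 18.2, 21.4 and 21.7 CPM in wt, Zmat3-/- and TKO mice, well above Cebpd.

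Cebpg (ENSMUSG00000056216.9; chr7:35046422-35056573, - strand), a broadly expressed C/EBP without its own activation domain, which forms heterodimers with other bZIP factors, was the most abundant C/EBP gene per length in wt mice. It was at 76.1, 74.0, 73.0 and 75.9 CPM in wt mice, 63.2, 64.3, 63.7 and 61.6 CPM in Zmat3-/- mice and 58.3, 76.7 and 69.2 CPM in TKO mice. All Zmat3-/- mice lay below all wt mice, while the TKO mice overlapped both. The log2 difference from wt mice was -0.24 (SE 0.0715) in Zmat3-/- and -0.15 (SE 0.125) in TKO mice. Genes whose Zmat3-/- mice all lay below all wt mice made up 6.87% of those tested.

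**Figure D3:**
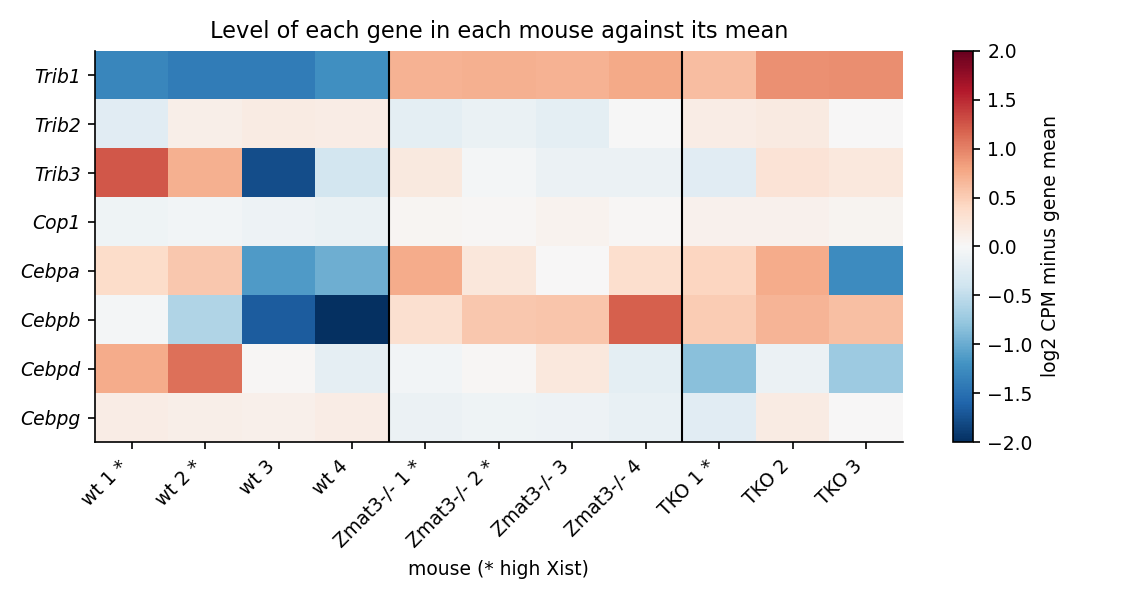
Log2 CPM of each gene minus its mean over the 11 mice, with mice in columns and an asterisk on mice with high Xist; blue is below and red above the gene's mean. Trib1, Cebpb and, by a small margin, Cop1 separate wt from mutant mice. Trib3, Cebpa, Cebpb and Cebpd stand higher in wt mice 1 and 2 than in wt mice 3 and 4.

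Cebpa, Cebpb, Cebpd and Trib3 were all higher in wt mice 1 and 2 than in wt mice 3 and 4. Cebpa was at a mean of 13.3 CPM in the first pair and 4.67 in the second, Cebpb at 9.44 and 3.19, Cebpd at 3.75 and 1.86, and Trib3 at 1.73 and 0.461. Trib1 was at 12.8 and 13.2 and Cop1 at 69.2 and 67.0 in the same pairs. Cop1 was also higher in both mice of the first pair, by a small margin, and Trib2 lower in both, at means of 114 and 131 CPM. The wt pairs differed across all genes, and the share of genes split in this way was not counted. The 9 macrophage markers summed to 375 and 385 CPM in wt mice 1 and 2 and to 212 and 194.5 in mice 3 and 4, and the 9 thymic stroma markers to 256 and 237 against 159 and 172. The erythroid sum ran the other way, at 1071 and 866 CPM in wt mice 1 and 2 and 8685 and 2222 in mice 3 and 4. In TKO mouse 3, where Cebpa was lowest, the macrophage sum was 147 CPM and the neutrophil sum 2.75 CPM, the lowest of the 11 mice, and Cebpb was at 17.6 CPM there, between the other TKO mice. Between genotypes the macrophage sum was 194.5 to 385 CPM in wt mice, 278 to 388 across Zmat3-/- mice and 147 to 445 across TKO mice, the neutrophil sum 11.7 to 30.6, 9.82 to 24.1 and 2.75 to 23.0, and the B cell sum 32.3 to 70.5, 31.3 to 44.1 and 24.9 to 47.5. The stroma sum was 159 to 256, 189 to 209 and 172 to 201, and 28.8 to 122, 77.1 to 103 and 42.6 to 102 without Pecam1, its most abundant gene, and the erythroid sum 866 to 8685, 1150 to 5753 and 2702 to 3731. Among the tested genes of these lists, Col3a1 (stroma) and Adgre1 (macrophage) lay wholly above wt mice in Zmat3-/- mice, as did 7.1% of all tested genes. Their log2 differences were 1.30 and 0.70 (edgeR adjusted p = 0.103 and 0.115). Of the 10 thymocyte markers, 8 were lower and 2 higher than in wt mice in both comparisons. Thy1, Cd3e, Cd8a and Rag2 lay wholly below wt mice in Zmat3-/- mice, as did 6.87% of all tested genes. Cd3e and Cd8a also did so in TKO mice, where 6.95% of tested genes did. None of these markers was at 0 in all mice, none passed adjusted p under 0.05 in any comparison, and their part in the C/EBP levels was not tested.

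A list of immediate-early genes was also compared between the genotypes. It was drawn up with earlier results of these data known and its genes are named after their values were seen, so nothing is read from its counts against the shares of all genes. Of 12 immediate-early genes, which cells switch on within minutes of stimulation, 10 were higher and 2 lower than in wt mice in both comparisons, and the sum of the 12 was 825 to 1309 CPM in wt mice, 1692 to 2055 across Zmat3-/- mice and 1760 to 2052 across TKO mice. At an adjusted p under 0.05, 3 of them rose in both comparisons (Fosb, Dusp1 and Nr4a1), beside 0.294% of all genes in TKO and 0.763% in Zmat3-/- mice passing in either direction at any fold change, and 9 did not pass. Of the 3, Fosb and Dusp1 also passed the fold threshold. In both comparisons 6 of the higher genes (Fos, Fosb, Jun, Junb, Dusp1 and Nr4a1) lay wholly above wt mice, as did 6.85% of all tested genes in TKO and 7.1% in Zmat3-/- mice. The 2 lower genes, Egr1 and Btg2, lay wholly below wt mice, as did 6.95% and 6.87% of all tested genes, and did not pass (adjusted p = 0.15 and 0.0796 in Zmat3-/-, 0.435 and 0.326 in TKO mice). The log2 difference of Dusp1 was 2.28 in Zmat3-/- and 2.37 in TKO mice, 2.94 and 3.03 without wt mice 1 and 2, and 1.83 and 1.93 without wt mice 3 and 4. With the replicate block in Zmat3-/- against wt, the log2 differences were 3.75, 2.38 and 1.13 for Fosb, Dusp1 and Nr4a1, and the adjusted p values 0.0133, 0.0613 and 0.0511. Leaving out a single mouse could end each of these calls except that of Fosb in Zmat3-/- mice. In Zmat3-/- against wt, Fosb passed whichever of the 8 mice was left out (adjusted p = 0.00395 to 0.0149), Dusp1 did not pass with any of the Zmat3-/- mice left out (0.0612 to 0.0707), and Nr4a1 did not pass without Zmat3-/- mouse 1, 2 or 4 or wt mouse 3 or 4 (0.0546 to 0.0973). In TKO against wt, Fosb did not pass without TKO mouse 1 or 3 (0.0840 and 0.0921), and Dusp1 and Nr4a1 passed without wt mouse 1 (0.0314 and 0.0475) but did not pass with any of the other 6 mice left out (0.0549 to 0.198 and 0.0651 to 0.270). With 1 surrogate variable in TKO against wt, Dusp1 and Nr4a1 did not pass either (0.0799 and 0.123). Their part in the Trib1 and Cebpb levels was not tested.

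The comparison of TKO with Zmat3-/- mice asks what the further loss of Puma and p21 does to these genes, and it was tested because it did not put genes on the list. It uses the same mutant mice as the comparisons with wt mice, so it is not independent of them. None of the 7 tested genes passed, where 0.122% of 13124 genes did, and their adjusted p values lay between 0.983 and 0.985 (edgeR). At an unadjusted p under 0.05 there was 1, Trib2, where 4.49% of all tested genes had such a value. Trib2 was 1.17-fold higher in TKO mice, a log2 difference of 0.22 (95% interval 0.05 to 0.39), with an unadjusted p of 0.0166 and an adjusted p of 0.983. All 3 TKO mice, at 117 to 133 CPM, lay above all 4 Zmat3-/- mice, at 103 to 116 CPM, which 3.29% of tested genes also did.

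Trib1 differed by 0.09 on the log2 scale between TKO and Zmat3-/- mice (95% interval -0.08 to 0.27). Cop1 differed by 0.02 (-0.11 to 0.15), Cebpg by 0.08 (-0.11 to 0.27) and Cebpb by -0.12 (-0.52 to 0.29). The intervals were wide for Cebpa, at -0.21 (-1.07 to 0.65), and Cebpd, at -0.59 (-1.18 to 0.01), so the data do not tell apart differences inside these intervals. Cebpa was spread over 4.09 to 16.2 CPM among the TKO mice.

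**Figure D4:**
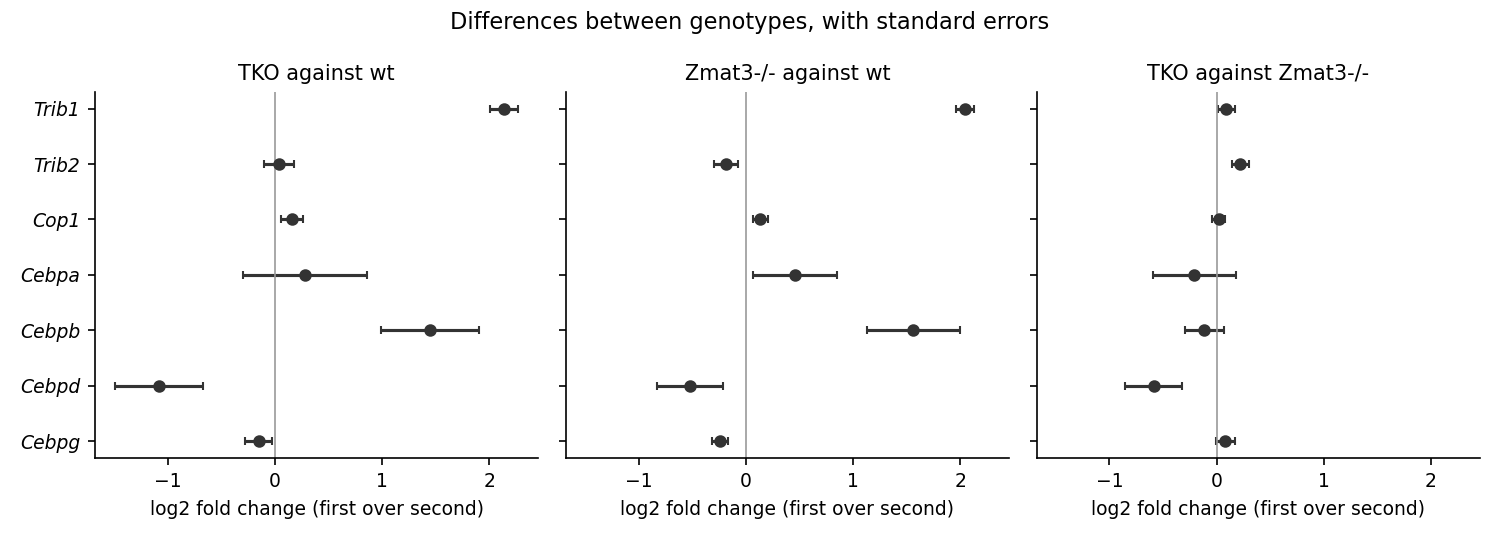
Log2 fold change of the 7 tested genes (first genotype over second) in the 3 comparisons, with error bars of 1 SE. Trib1 lies at 2.14 and 2.04 against wt mice and at 0.09 between TKO and Zmat3-/- mice; Cebpb lies at 1.45, 1.56 and -0.12, with larger errors against wt mice.

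The genes whose levels over the 11 mice were most like those of Trib1 and Cebpb were found by the root-mean-square difference of log2 CPM centred on each gene, among 12957 genes. For Trib1 they were Tnfaip3 (0.162), which encodes the ubiquitin-editing enzyme A20, then A130051J06Rik (0.211), Spry1 (0.264), an inhibitor of receptor tyrosine kinase signalling, Tob2 (0.284), an antiproliferative gene, and Nr4a2 (0.290), an orphan nuclear receptor. Tnfaip3 was at 103 to 142 CPM in wt mice, 425 to 455 across Zmat3-/- mice and 443 to 548 across TKO mice. For Cebpb they included Rgs2 (0.297), a regulator of G protein signalling, Ksr2 (0.322), a MAP kinase scaffold, Gm42929 (0.363) and Ccno (0.402). Rgs2 was at 34.3 to 79.6 CPM in wt mice, 135 to 181 across Zmat3-/- mice and 137 to 190 across TKO mice. Cebpb ranked 51 among the genes most like Trib1, and Trib1 ranked 37 among those most like Cebpb, at a difference of 0.567. These likenesses are a description over 11 libraries that share 3 genotypes.

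The other genes of the pathway were taken from 6 lists with 69 genes, of which 57 were tested in each comparison with wt mice and 56 between TKO and Zmat3-/- mice. None was called in TKO against wt, in Zmat3-/- against wt or in TKO against Zmat3-/- mice, and 6, 10 and 2 had an unadjusted p under 0.05, beside 10.3%, 16.1% and 4.49% of all genes tested. At any fold change, adjusted p values under 0.05 were found for 0, 1 and 0 of them, beside 0.294%, 0.763% and 0.221% of all genes. The median log2 difference of the listed genes was 0.01, -0.01 and 0.01, beside -0.04, -0.03 and -0.01 over all genes tested. Against wt mice 30 were higher and 27 lower in TKO, and 27 were higher and 30 lower in Zmat3-/- mice.

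In the list of the COP1 ligase complex and the COP9 signalosome, which removes NEDD8 from cullins, 1 of 15 genes fell at an adjusted p under 0.05, without reaching the fold threshold, in Zmat3-/- against wt mice, where 0.763% of all genes passed at any fold change. It was Cops7b, a signalosome subunit, at 31.8 to 38.1 CPM in wt mice, 21.1 to 24.4 across Zmat3-/- mice and 16.4 to 20.9 across TKO mice. The 3 genotypes did not overlap; 6.95% of genes lay wholly lower in TKO and 6.87% in Zmat3-/- than in wt mice, and 2.41% in TKO than in Zmat3-/- mice. The log2 difference was -0.60 in Zmat3-/- (SE 0.102, edgeR adjusted p = 0.0418) and -0.85 in TKO against wt mice (SE 0.143, adjusted p = 0.0811). Whether it passed changed with the settings. In TKO mice it passed with all 3 genotypes in one fit (adjusted p = 0.00576), under DESeq2 (4.49e-06) and among mice with high Xist or low Xist (0.0207 and 0.0452), and in Zmat3-/- mice it did not pass with no filter on low counts (0.103). The Zmat3-/- value stayed at -0.60 with the replicate block but its adjusted p was then 0.178, and with each of the 8 mice left out in turn the adjusted p was 0.0554 to 0.174. Without wt mice 1 and 2 the log2 difference was -0.53 in Zmat3-/- and -0.78 in TKO mice (adjusted p = 0.00249 and 0.0146), and without wt mice 3 and 4 it was -0.67 and -0.90 (adjusted p = 0.000556 and 0.00218). Ddb1, the cullin adaptor of COP1 and the most abundant gene of that list per length, differed by 0.15 in Zmat3-/- and 0.17 in TKO mice from wt (adjusted p = 0.439 and 0.646).

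In the list of 12 COP1 substrates, 11 were tested, 8 were higher and 3 lower in TKO and 6 higher and 5 lower in Zmat3-/- than in wt mice, with medians of 0.29 and 0.32 on the log2 scale, and none passed at an adjusted p under 0.05. Ets1, a T cell transcription factor and the most abundant of them per length, was at a median of 1293 CPM in wt, 1671 in Zmat3-/- and 1587 in TKO mice (adjusted p = 0.337 and 0.610 against wt). Jun, a bZIP factor of AP-1 and a substrate of COP1, was chosen after its values were seen. It was at 4.68 to 37.2 CPM in wt mice, 66.7 to 130 across Zmat3-/- mice and 67.2 to 153 across TKO mice, without overlap with wt, and its log2 difference was 2.53 in Zmat3-/- (SE 0.692, adjusted p = 0.131) and 2.36 in TKO mice (SE 0.770, adjusted p = 0.399). Its call changed with the wt mice and the tool: DESeq2 with all mice called it (adjusted p = 0.00197 in Zmat3-/- and 0.0356 in TKO mice), and edgeR called it against either pair of wt mice alone; without wt mice 1 and 2 it was 4.55 in Zmat3-/- and 4.38 in TKO mice, and without wt mice 3 and 4 it was 1.72 and 1.56. Fos, listed among the bZIP partners and also chosen after its values were seen, was at 2.82 to 39.6 CPM in wt mice, 142 to 221 across Zmat3-/- mice and 130 to 212 across TKO mice (adjusted p = 0.121 and 0.349). Its log2 difference was 3.23 in Zmat3-/- and 3.17 in TKO mice, 5.97 and 5.92 without wt mice 1 and 2, and 2.33 and 2.30 without wt mice 3 and 4, and it too passed within either pair. Jun and Fos are also immediate-early genes.

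Of 8 Tribbles relatives and kinase partners, 5 were higher and 3 lower in both comparisons with wt mice and none passed. Akt1, a kinase bound by Tribbles proteins and the most abundant of them per length, was at a median of 171 CPM in wt, 191 in Zmat3-/- and 197 in TKO mice (adjusted p = 0.504 and 0.709). Of 12 other C/EBP genes and bZIP partners, 10 were tested and none passed. Atf4, the stress-response factor that heads this list per length, was at a median of 120 CPM in wt, 176 in Zmat3-/- and 184 in TKO mice (adjusted p = 0.496 and 0.652), with a wt range of 83.8 to 206 CPM that contained all mutant mice. Of 12 ATF4 targets 8 were tested and none passed. Phgdh, the first enzyme of serine synthesis, was at a median of 133 CPM in wt, 123 in Zmat3-/- and 119 in TKO mice (adjusted p = 0.628 and 0.708). Of 10 C/EBP targets of myeloid cells, 5 were tested against wt and 4 between TKO and Zmat3-/- mice, and none passed. Camp, a granule protein gene, was at medians of 1.27, 0.609 and 1.05 CPM in the 3 genotypes (adjusted p = 0.834 in TKO against wt, the comparison in which it had enough counts).

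Between TKO and Zmat3-/- mice none of the 56 tested pathway genes passed at an adjusted p under 0.05, where 0.221% of all genes did. Jun differed by -0.17 (95% interval -0.82 to 0.48), Atf4 by 0.00 (-0.18 to 0.18), Ets1 by -0.03 (-0.30 to 0.24), Ddb1 by 0.02 (-0.15 to 0.19), Akt1 by 0.00 (-0.17 to 0.18) and Phgdh by -0.03 (-0.22 to 0.16).

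**Figure D5:**
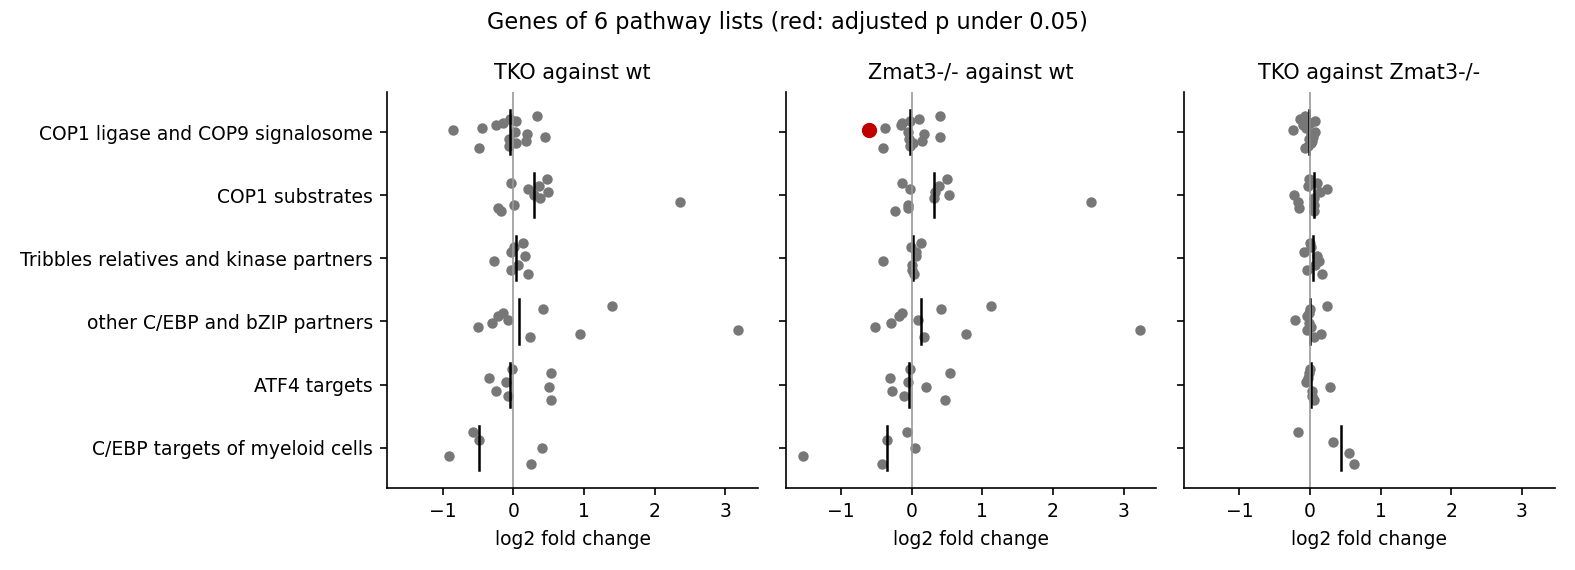
Log2 fold change of each tested gene of the 6 pathway lists in the 3 comparisons, with 1 point per gene, a black bar at the list's median and red for an adjusted p under 0.05. Cops7b in Zmat3-/- against wt, at -0.60, is the 1 red point, and the 2 points above 2 against wt mice are Jun and Fos.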

How the data were processed

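The authors sequenced unstranded TruSeq RNA v2 libraries as paired ends, quantified genes with Salmon on GRCm38.p6, and deposited 1 table of expected counts per gene and mouse, which held only whole numbers (per the labels and the study's methods; the submitters' processing notes name bcl2fastq, Salmon and DESeq2 1.40.0). Estimated counts split reads between overlapping genes by the quantifier's model. The table gives Ensembl identifiers; names came from GENCODE M21 on GRCm38, which matched 54166 of 54418. Mice were grouped by the genotype in the labels, and each sample was 1 mouse. Promoter sequences are RefSeq's.

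The members and gene lists were chosen with earlier results of these data known. Genotypes were compared in pairs with edgeR 4.0.16 in R 4.3.3 (TMM, quasi-likelihood F-test, two-sided, Benjamini-Hochberg over all genes tested). A gene was tested where its level before TMM scaling reached the worth of 20 counts in the smallest library of the comparison (1.13 CPM in those with TKO mice and 0.894 in Zmat3-/- against wt) in a number of mice equal to the smaller group. Genes of chromosome Y, Xist, rRNA genes and immunoglobulin genes without a coding product were removed, after the study's methods. CPM used TMM factors over the 11 mice. Precision is limited by 3 or 4 mice per genotype, and counts cover 17669715 to 80207003 per library. The fits were run on simulated counts with 200 strongly changed genes and no split of the wt mice, and called 100% of these genes in each comparison. That run checks the working of the fits and does not measure their power in these libraries.

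Named genes were the 8 members, in each pathway list and comparison those with an adjusted p under 0.05 or, where none passed in that comparison, the one most abundant per length, the targeted genes, and the 5 genes most like Trib1 and Cebpb, of which 1 is not reported here. Jun, Fos and the other immediate-early genes were named after their values were seen. Alternatives were DESeq2 1.42.0, RLE factors, other filters, all genotypes in one fit, a replicate block, Xist as a covariate, 1 surrogate variable (sva 3.50.0), each mouse left out, and, chosen after seeing the data, wt mice 1 and 2 or 3 and 4 left out. Zmat3-/- and wt mice share replicate numbers in the labels, and their deviations from the group means correlated at 0.337, 0.127, 0.257 and 0.301 for numbers 1 to 4. Numbers 1 and 2 had high Xist in both genotypes, so these correlations do not settle whether same-numbered mice are paired. The replicate block treats them as paired and was run as an alternative only.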

Additional observations from a re-analysis of the deposited data

Results flagged for a closer look

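Trib2 in wt mice was marked because wt mouse 1, at 100.3 CPM, lay apart from the other 3 at 127, 131 and 131 CPM: its gap to the nearest of them was 0.891 of the group's range, above Dixon's 95% critical value for 4 samples. It was the 1 group marked of 16 tested, and chance marks about 1 in 20.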

How the results depend on the processing

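Against wt mice the log2 difference of Trib1 was 1.95 to 2.25 in TKO and 2.01 to 2.07 in Zmat3-/- mice over the alternatives, given as a description. Numbers of members past the call thresholds against wt mice, from which nothing is read, were 1 in each comparison in the report. In TKO against wt they were 2 without wt mice 1 and 2 and in mice with low Xist (with Cebpb), and 2 without wt mice 3 and 4 and in mice with high Xist (with Cebpd). In Zmat3-/- against wt they were 2, with Cebpb, under DESeq2, with 1 surrogate variable, without wt mice 1 and 2 and in mice with low Xist. Pathway genes called in TKO against wt, 0 in the report, were 1 under DESeq2, 4 without wt mice 1 and 2, and 2 without wt mice 3 and 4, in mice with high Xist and in mice with low Xist. In Zmat3-/- against wt they were 2 under DESeq2, 3 with 1 surrogate variable, 4 without wt mice 1 and 2 and 4 without wt mice 3 and 4, 3 in either Xist class, and 1 at any fold change. Jun was among them under each of these settings except the last, where it was Cops7b, and Fos likewise except under DESeq2 in TKO mice.

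In TKO against Zmat3-/- mice no member was called in any alternative, and log2 differences near 0 changed sign. Trib1 was -0.086, Cebpb 0.076 and Cebpg -0.13 in mice with high Xist, and Cop1 -0.0051 in mice with low Xist. With each mouse left out in turn, Cop1 ranged from -0.00047 to 0.054, Cebpa from -0.56 to 0.23, Cebpb from -0.21 to 0.11 and Cebpg from -0.00043 to 0.17. With the replicate block Cebpb was 0.10. Trib2 was 0.31 with an adjusted p of 0.0287 in mice with high Xist (range over all alternatives 0.0287 to 1.00), short of the fold threshold. Deviations of same-numbered mice correlated at 0.195, 0.0113 and 0.173 in that comparison and at 0.0729, 0.301 and 0.406 in TKO against wt. The latter values are not set apart from those of Zmat3-/- against wt, so whether the numbers pair the mice was not settled. Over all genes the block gave 16 calls in TKO against Zmat3-/- and 16 in TKO against wt, where there were 16 and 32 without it. Among pathway genes the block changed no other call than that of Cops7b; in TKO against wt its adjusted p was 0.156 for Fosb, 0.119 for Dusp1 and 0.187 for Nr4a1. The cause of these changes was not tested. The classes by Xist leave 1 TKO mouse with high Xist, which was assumed to vary like the other genotype.

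Over all genes the calls in Zmat3-/- against wt were 43, 8 with the replicate block, 123 under DESeq2, 160 with 1 surrogate variable, 72 with all genotypes in one fit, 444 without wt mice 1 and 2, 733 without wt mice 3 and 4, and 608 and 363 in mice with high and low Xist. They were 12 to 14 with any of the Zmat3-/- mice left out and 19 to 47 with any of the wt mice left out. In TKO against wt they were 32, 103 under DESeq2, 68 with all genotypes in one fit, 51 with no filter on low counts, 19 with 1 surrogate variable, 244 without wt mice 1 and 2, 672 without wt mice 3 and 4, and 731 and 142 in mice with high and low Xist. They were 15 to 17 with any of the TKO mice left out and 25 to 34 with any of the wt mice left out. In TKO against Zmat3-/- they were 16, 45 with no filter on low counts and 59 in mice with high Xist. The shares of genes called in the report rest on the first of these counts in each comparison. Low counts limit Trib3 and Cebpd, and the split of the wt mice limits Cebpa, Cebpb and Cebpd.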
